A study of Mus musculus with 12 samples.

Results

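The DNA replication and nucleotide supply genes are 54 genes that were listed by name and looked up by gene symbol among the 24439 gene names of the expression tables. All 54 were found, and all 54 were over 1 TPM (the share of a transcript among all, corrected for its length) in at least 1 library. Of these, 43 were over 1 TPM in every library, and the rest fell below it only in libraries of cells without IL-2. The rule that lists them uses no measured value, but the list was drawn up with earlier results of these data known. They were measured by RNA-Seq in CD4 T cells from the spleens of C57BL/6 C42 mice, a transgenic line with human DNA of the IL3/CSF2 locus in its genome. The cells had been turned into dividing T blast cells (TB) with 2 µg/ml of the plant lectin Concanavalin A for 40 h and then grown in 50 U/ml IL-2, for 30 h in the methods and 2 days in the labels. TB IL-2 cells were kept in IL-2, and TB IL-2nil cells were left without it for the last 16 h. TB+ IL-2 and TB+ IL-2nil cells were cells kept in these 2 ways and given 20 ng/ml phorbol myristate acetate with 2 µM calcium ionophore (PMA/I), which mimics T cell receptor signalling, for 2 h. Each group has 3 libraries. The labels do not say whether these are separate mice or cultures, so the P-values measure only the spread between libraries, which may be technical.

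The libraries labelled TB IL-2nil replicate 3 and TB+ IL-2 replicate 3 are placed here in each other's group. The study's own normalized values for these libraries were met by the library of the other label in 100% of 1381 genes within 0.1%, and by the library of the same label in 0.0724%. They were met after quantile normalization of the deposited values. The fits here equalize the 75th percentiles instead, as the methods name upper-quartile normalization. Il2, which PMA/I induces, stood at 0 to 1.18 FPKM (the deposited unit, fragments per length and depth) in the 6 libraries then placed without PMA/I and at 1095 to 2374 FPKM in the 6 placed with it. The counts of called genes among all 54 are also given with the labels as deposited and without both libraries, whereas counts of libraries that do not overlap are given as placed. The relative depth of the libraries, inferred here from their low FPKM values, differed by 3.04 times, and short non-coding RNAs took 16.6 to 53.2% of the FPKM. As no read counts are used here, no counting error is known. The 6 CD4 T cell markers summed to 1180 to 2160 TPM, the CD8 T cell markers to 6.91 to 31.9 TPM and the myeloid markers to at most 4.88 TPM, and the NK cell markers to at most 0.303 TPM, with Ncr1 listed at 0 in all 12 libraries.

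DNA replication starts when the origin recognition complex with CDC6 and CDT1 loads the ring of MCM helicase subunits on DNA. CDC45 and the GINS complex turn this ring into the active helicase, and polymerases, the PCNA clamp and a supply of deoxynucleotides then copy the strands. Many of these genes are transcribed as cells pass from G1 into S phase, when E2F factors are released from retinoblastoma proteins, and IL-2 is the growth factor that drives cultured T cells through this step. In bulk RNA, fewer cells in S phase and less RNA per cell cannot be told apart.

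Replication genes were much more abundant with IL-2 than without it. The 54 genes together made up 4751 ± 1014 TPM (SD, n = 3) in TB IL-2, 912 ± 44.2 TPM in TB IL-2nil, 3322 ± 798 TPM in TB+ IL-2 and 716 ± 32.7 TPM in TB+ IL-2nil. All 6 libraries with IL-2 were above all 6 without it, from 2534 against 957 TPM. Pcna, the sliding clamp, was the most abundant member in 3 groups and came after Rpa1 in TB IL-2nil. Cdc6 was the least abundant in all groups except TB IL-2, where it was Orc1.

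**Figure D1:**
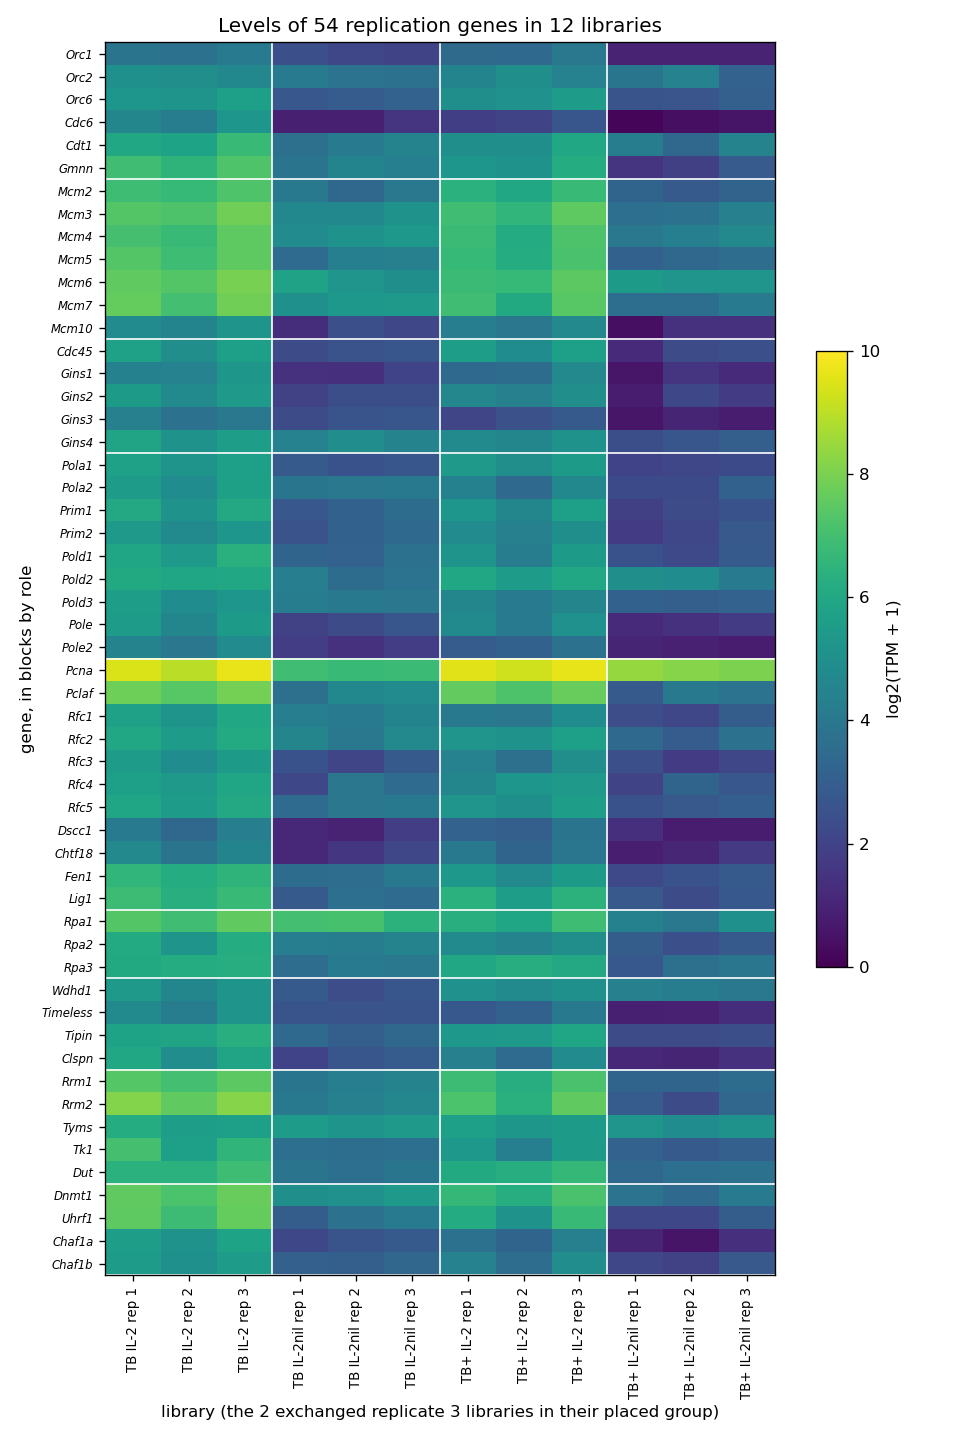
Levels of the 54 replication genes (rows, in blocks by role from origin licensing at the top to chromatin assembly at the bottom) in the 12 libraries (columns), as log2(TPM + 1) from dark (0) to yellow (10). The columns of both IL-2 groups are lighter than those of both IL-2nil groups in nearly every row, and Tyms differs least.

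In TB IL-2 against TB IL-2nil, 52 of 54 genes were higher and 0 were lower at an adjusted P under 0.05 (limma across 12442 genes, with Benjamini-Hochberg adjustment), where 17.3% of all genes were called higher and 22.3% lower. The median difference of the 54 genes was 2.56 on the log2(TPM + 1) scale, or 5.91-fold, against -0.13 for all genes tested. More than 3-fold higher on this scale were 44 of them (4.69% of all genes). The exceptions to the call were Rpa1 and Tyms. In 53 of 54 genes the 3 TB IL-2 libraries were above the 3 TB IL-2nil libraries (22.8% of all genes), with overlap for Rpa1 alone. With the labels as deposited only Cdc6 was called, with 0.0723% of all genes, and the median difference was 1.83. Without both libraries 51 genes were called higher (14.4%).

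After PMA/I the same comparison, TB+ IL-2 against TB+ IL-2nil, gave 52 higher and 0 lower (12.9% and 8.4% of all genes), 47 of them more than 3-fold (3.21%). The median difference was 2.50, against -0.04 for all genes. Orc2 and Tyms did not pass. The libraries of the 2 groups did not overlap for any of the 54 genes (18.9% of all genes did not overlap in this direction). With the labels as deposited Gins3, Gins4 and Rpa1 were called, with 0.185% of all genes and a median difference of 1.90, and without both libraries 48 were called (6.94%). With the replicate number as a block, Orc2 (adjusted P = 0.0206) and Tyms passed here.

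Some other features of the libraries moved with IL-2. The 4 B cell markers summed to 23.2 to 29.6 TPM in TB IL-2nil against 5.94 to 10.4 TPM in TB IL-2, and to 5.49 to 12.7 TPM in TB+ IL-2nil against 2.36 to 3.31 TPM in TB+ IL-2, with none of the 4 at 0. The CD4 T cell markers were at 2020 to 2160 TPM in TB IL-2nil and 1200 to 1290 TPM in TB IL-2, and at 1690 to 2080 TPM in TB+ IL-2nil and 1180 to 1320 TPM in TB+ IL-2. Short non-coding RNAs took 33, 40.2 and 53.2% of the FPKM in TB+ IL-2nil against 22.2, 22.7 and 27.5% in TB+ IL-2, without overlap, and overlapped between TB IL-2 and TB IL-2nil. The part of these features in the differences of the replication genes was not tested.

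**Figure D2:**
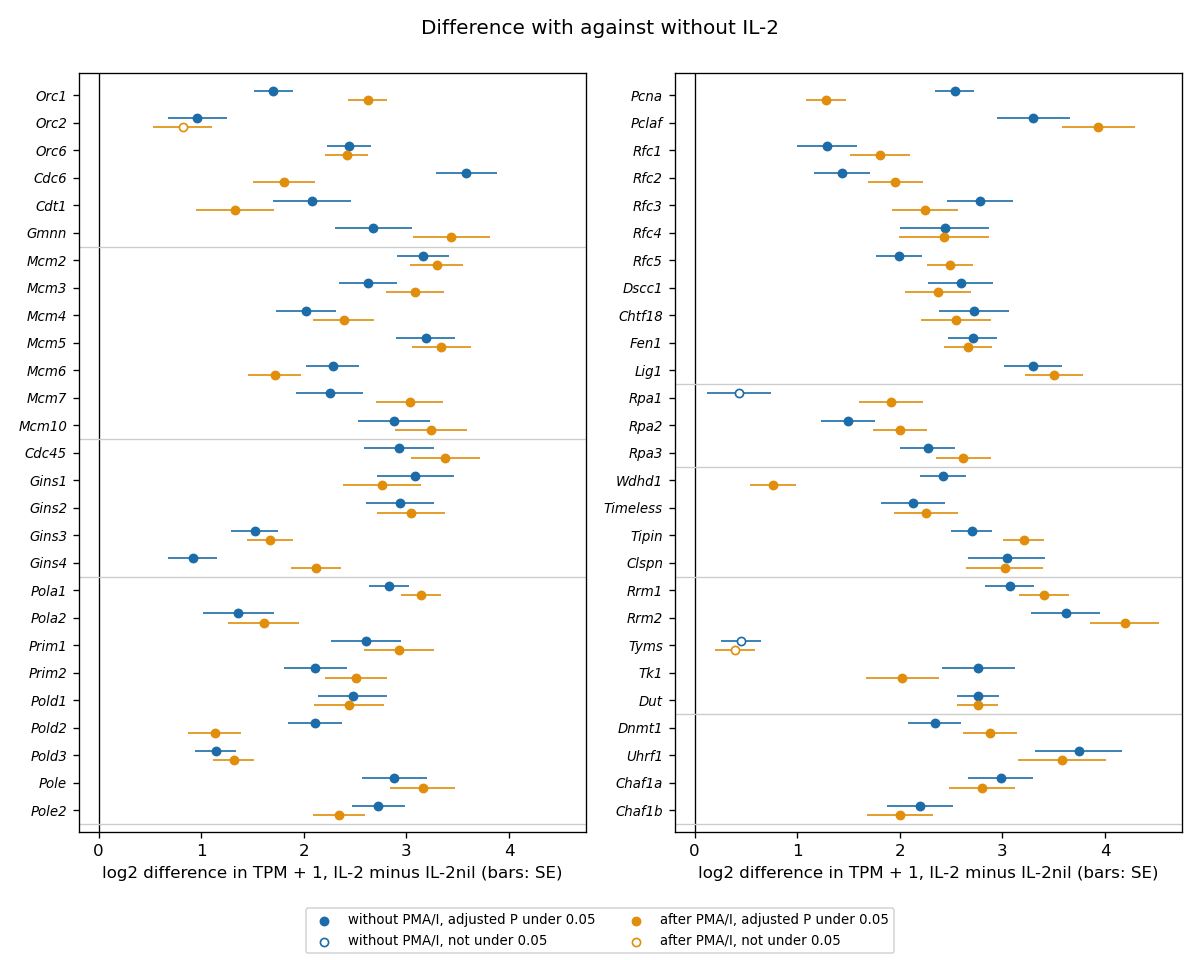
Log2 difference in TPM + 1 between cells with and without IL-2 (points, with bars for the SE of the limma fit) for each replication gene, before (blue) and after (orange) PMA/I. Filled points passed an adjusted P under 0.05. All points lie above 0, and Tyms is closest to it. Cdc6, Pcna and Wdhd1 are the 3 genes whose points before and after PMA/I differed in the interaction test, where 2.66% of all genes were called lower. For Cdc6 the means without IL-2 were 1.19 and 0.307 TPM, where this scale understates changes.

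The promoters of these genes were read in RefSeq windows of 300 bases (GRCm38.p6, 250 bases before and 50 after each start), of which 44 of 54 genes have at least 1. Gmnn, Mcm4, Gins1, Gins2, Gins4, Prim2, Pole, Rfc2, Dscc1 and Tipin were not among them. An E2F site was counted as TTTCCCGC or TTTGGCGC on either strand, and a CCAAT box, bound by NF-Y, as CCAAT on either strand, with no overlap between the motifs in these windows. E2F sites were in 14 of 44 genes (31.8%, against 1.8% of 27025 genes with a window). CCAAT boxes were in 28 of 44 genes (63.6% against 41.1%), and both motifs in 9 (20.5% against 0.851%). TTTGAA, the core of the CHR element of mitotic promoters, was in 6 (13.6% against 20.2%). The median IL-2 difference before PMA/I was 2.55 (1.14 to 3.59) in the 14 genes with an E2F site and 2.49 (0.43 to 3.74) in the 30 without these letters.

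The sequences are the 170 bases before the start, 5′ to 3′ on the strand of the gene, for 5 genes with an E2F site there and for both genes that were not called before PMA/I. They are shown to set promoters with and without these letters side by side. Capitals mark E2F sites (8 bases) and CCAAT boxes (5 bases). Mcm6 holds E2F sites at positions -110 and -47 from the start, Mcm5 holds 1 at -149 with a pair of CCAAT boxes after it, and neither Rpa1 nor Tyms holds these E2F letters.
Cdc6 (chr11:98907981-98908150, plus strand): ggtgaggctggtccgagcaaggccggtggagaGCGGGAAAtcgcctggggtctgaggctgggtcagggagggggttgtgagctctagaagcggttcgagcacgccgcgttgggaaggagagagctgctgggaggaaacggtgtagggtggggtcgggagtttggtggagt
Mcm5 (chr8:75109339-75109508, plus strand): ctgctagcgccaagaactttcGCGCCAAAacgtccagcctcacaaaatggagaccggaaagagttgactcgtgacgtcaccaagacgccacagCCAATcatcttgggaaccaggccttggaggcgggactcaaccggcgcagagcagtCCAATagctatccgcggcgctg
Mcm6 (chr1:128359706-128359875, minus strand): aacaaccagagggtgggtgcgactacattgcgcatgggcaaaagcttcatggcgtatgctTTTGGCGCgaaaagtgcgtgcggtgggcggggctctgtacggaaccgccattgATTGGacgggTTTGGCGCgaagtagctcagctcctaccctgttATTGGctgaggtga
Pola1 (chrX:93632156-93632325, minus strand): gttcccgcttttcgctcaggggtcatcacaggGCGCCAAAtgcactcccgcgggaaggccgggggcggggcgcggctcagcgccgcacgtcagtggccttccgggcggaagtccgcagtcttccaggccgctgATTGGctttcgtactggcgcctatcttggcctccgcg
Gins3 (chr8:95633389-95633558, plus strand): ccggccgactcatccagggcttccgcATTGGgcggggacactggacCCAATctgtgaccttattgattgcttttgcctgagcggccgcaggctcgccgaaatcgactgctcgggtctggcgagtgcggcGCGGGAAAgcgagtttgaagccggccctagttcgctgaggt
Rpa1 (chr11:75348384-75348553, minus strand): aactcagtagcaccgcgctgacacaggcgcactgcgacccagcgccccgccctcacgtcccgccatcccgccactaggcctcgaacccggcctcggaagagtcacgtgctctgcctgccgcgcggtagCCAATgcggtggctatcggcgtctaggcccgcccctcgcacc
Tyms (chr5:30073626-30073795, minus strand): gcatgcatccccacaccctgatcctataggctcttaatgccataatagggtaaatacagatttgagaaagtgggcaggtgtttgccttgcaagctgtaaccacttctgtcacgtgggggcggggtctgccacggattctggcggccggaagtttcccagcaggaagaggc

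**Figure D3:**
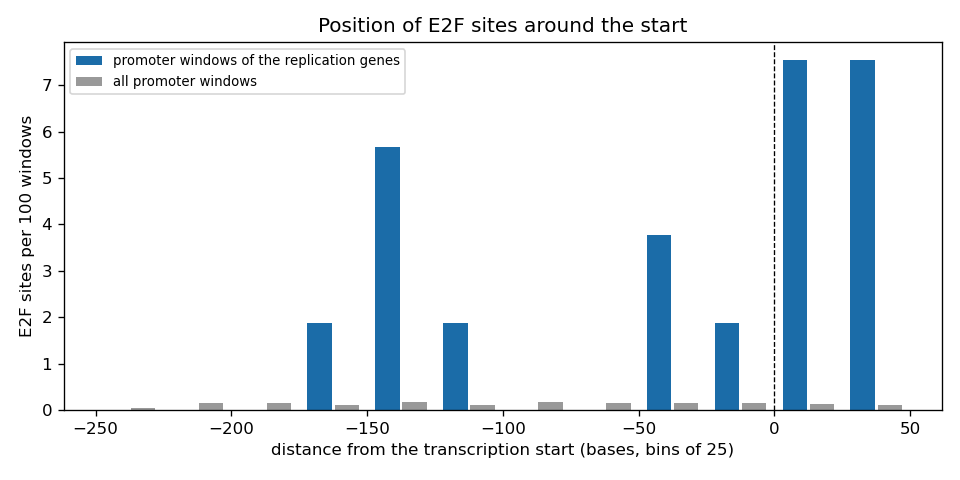
E2F sites per 100 promoter windows in bins of 25 bases from 250 bases before to 50 bases after the transcription start, for windows of the replication genes (blue) and all windows (grey). Of the 14 genes with a site, 7 have one before the start and 7 only after it, and the grey bars reach at most 0.183.

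All 6 genes of origin recognition and licensing were higher in TB IL-2 than in TB IL-2nil, 5 of them more than 3-fold. Cdc6 (chromosome 11, 98769115 to 98785254, plus strand, mm9), the ATPase that loads the helicase, stood in replicates 1 to 3 at 22.97, 17.5 and 37.00 TPM in TB IL-2, 0.826, 0.853 and 1.88 TPM in TB IL-2nil, 2.58, 3.10 and 5.33 TPM in TB+ IL-2 and 0.110, 0.312 and 0.499 TPM in TB+ IL-2nil. All 3 TB IL-2 libraries were above the other 9, and no group overlapped another. The difference between TB IL-2 and TB IL-2nil was 3.59 ± 0.30 (log2, SE, adjusted P = 3.83e-05), with means 21.8-fold apart. After PMA/I it was 1.80 ± 0.30 (adjusted P = 0.00236), with means of 3.67 and 0.307 TPM, where adding 1 TPM understates the difference. Orc2, a core subunit of the origin recognition complex, had the smallest difference of the 6. It stood at 31.1, 29.8 and 24.4 TPM in TB IL-2, 16.9, 13.2 and 12.3 TPM in TB IL-2nil, 21.7, 30.9 and 20.9 TPM in TB+ IL-2 and 13.8, 20.8 and 7.92 TPM in TB+ IL-2nil. TB IL-2 libraries were above TB IL-2nil libraries, but those after PMA/I nearly touched. Its difference was 0.96 ± 0.29 (adjusted P = 0.0215) before and 0.82 ± 0.29 (adjusted P = 0.0657) after PMA/I, and without both exchanged libraries it did not pass before PMA/I either (0.88, adjusted P = 0.081). Orc1, the ATPase subunit of the same complex, was at 13.4, 12.4 and 16.7 TPM in TB IL-2, 4.39, 3.41 and 3.16 TPM in TB IL-2nil, 9.86, 9.69 and 15.2 TPM in TB+ IL-2 and 1.02, 1.02 and 0.982 TPM in TB+ IL-2nil. The TB+ IL-2nil libraries were the lowest and lay close together. Orc1 was higher with IL-2 by 1.70 ± 0.19 before and 2.62 ± 0.19 after PMA/I. Gmnn encodes geminin, which blocks CDT1 once S phase has begun. It was at 120.2, 90.7 and 151 TPM in TB IL-2, 13.3, 21.8 and 18.9 TPM in TB IL-2nil, 37.04, 34.2 and 71.5 TPM in TB+ IL-2 and 1.83, 2.75 and 6.23 TPM in TB+ IL-2nil. No TB IL-2 library overlapped another group, and the IL-2 difference was 2.68 ± 0.38 before and 3.44 ± 0.38 after PMA/I. Orc6 (2.44) and Cdt1 (2.08) lay between.

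The MCM helicase genes were all higher with IL-2 by more than 3-fold, by 2.02 to 3.19 before and 1.72 to 3.34 after PMA/I. Mcm5, a subunit of the hexamer, had the largest difference before PMA/I. It stood at 157, 117 and 184 TPM in TB IL-2, 10.4, 18.7 and 19.3 TPM in TB IL-2nil, 103, 72.7 and 137 TPM in TB+ IL-2 and 7.57, 9.11 and 10.9 TPM in TB+ IL-2nil. Every library with IL-2 was above every library without it, the closest being 72.7 and 19.3 TPM. The difference was 3.19 ± 0.29 (adjusted P = 6.47e-05) before and 3.34 ± 0.29 (adjusted P = 8.71e-05) after PMA/I. Mcm4 had the smallest, with 130.3, 108 and 181 TPM in TB IL-2, 27.4, 33.00 and 39.3 TPM in TB IL-2nil, 112, 69.7 and 148 TPM in TB+ IL-2 and 15.2, 18.7 and 25.1 TPM in TB+ IL-2nil. It too did not overlap between cells with and without IL-2, and differed by 2.02 ± 0.30 and 2.39 ± 0.30. Mcm10, which helps to start the loaded helicase, was the least abundant of the 7 in each group and differed by 2.88 before PMA/I.

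CDC45 and the 4 GINS subunits were each called higher with IL-2 in both comparisons. Gins1 had the largest difference before PMA/I. It was at 20.03, 20.6 and 38.03 TPM in TB IL-2, 1.69, 1.63 and 3.09 TPM in TB IL-2nil, 9.76, 10.5 and 24.8 TPM in TB+ IL-2 and 0.534, 1.86 and 1.33 TPM in TB+ IL-2nil. The lowest library with IL-2 was at 9.76 TPM and the highest without at 3.09 TPM, and the differences were 3.09 ± 0.38 and 2.76 ± 0.38. Gins4 had the smallest difference before PMA/I, with 56.5, 32.9 and 47.97 TPM in TB IL-2, 20.5, 28.8 and 21.2 TPM in TB IL-2nil, 26.8, 23.1 and 33.4 TPM in TB+ IL-2 and 4.35, 5.42 and 7.20 TPM in TB+ IL-2nil. Its TB IL-2nil libraries came close to the lowest TB IL-2 library, and its difference was 0.92 ± 0.24 (adjusted P = 0.0121) before against 2.12 ± 0.24 (adjusted P = 0.000344) after PMA/I. Gins3 was at 19.5, 12.3 and 15.2 TPM in TB IL-2, 3.90, 4.99 and 5.39 TPM in TB IL-2nil, 3.29, 4.62 and 6.03 TPM in TB+ IL-2 and 0.503, 1.06 and 0.690 TPM in TB+ IL-2nil. TB IL-2 was highest and TB+ IL-2nil lowest without overlap, while the ranges of TB IL-2nil and TB+ IL-2 overlapped. Its IL-2 difference was 1.52 ± 0.23 before and 1.67 ± 0.23 after PMA/I. The means were 15.7 and 4.76 TPM before and 4.65 and 0.752 TPM after, where adding 1 TPM understates the difference.

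All 9 polymerase and primase genes passed in both comparisons, but after PMA/I Pola2 (1.36, adjusted P = 0.0593) and Pold2 (1.05, adjusted P = 0.0686) did not pass without both exchanged libraries, nor in a fit of the compared groups alone. Pole, the catalytic subunit of the leading-strand polymerase, had the largest difference before PMA/I on the log2(TPM + 1) scale. It was at 44.9, 23.2 and 42.4 TPM in TB IL-2, 2.77, 4.01 and 5.39 TPM in TB IL-2nil, 25.6, 15.8 and 32.3 TPM in TB+ IL-2 and 1.33, 1.66 and 2.37 TPM in TB+ IL-2nil. The lowest library with IL-2, at 15.8 TPM, was above the highest without, at 5.39 TPM. The differences were 2.88 ± 0.32 (adjusted P = 0.000133) and 3.16 ± 0.32 (adjusted P = 0.00016). Pold3, an accessory subunit of polymerase delta, had the smallest, with 46.3, 28.5 and 37.02 TPM in TB IL-2, 18.04, 15.7 and 14.6 TPM in TB IL-2nil, 23.1, 16.2 and 22.5 TPM in TB+ IL-2 and 7.72, 7.26 and 7.77 TPM in TB+ IL-2nil. Its TB IL-2nil and TB+ IL-2 libraries overlapped, and IL-2 made a difference of 1.14 ± 0.20 and 1.31 ± 0.20. Pold2, another accessory subunit, was at 67.2, 57.9 and 62.7 TPM in TB IL-2, 18.4, 10.6 and 13.1 TPM in TB IL-2nil, 60.6, 43.7 and 61.1 TPM in TB+ IL-2 and 30.7, 28.5 and 16.4 TPM in TB+ IL-2nil. Its libraries after PMA/I without IL-2 were mostly above those before it, and its IL-2 difference was 2.11 ± 0.26 before and 1.13 ± 0.26 (adjusted P = 0.0113) after PMA/I. Pola1 and Prim1, of the complex that lays down primers, differed by 2.83 and 2.60 before PMA/I.

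The clamp, its loaders and the enzymes of the lagging strand were called higher with IL-2 in all 11 cases before and after PMA/I. Pclaf, a small PCNA-binding protein of S phase cells, had the largest difference in this group on the log2(TPM + 1) scale. It was at 218, 166 and 241 TPM in TB IL-2, 11.8, 24.5 and 27.2 TPM in TB IL-2nil, 194, 146 and 205 TPM in TB+ IL-2 and 6.11, 15.6 and 12.98 TPM in TB+ IL-2nil. The lowest library with IL-2 was at 146 TPM and the highest without at 27.2 TPM, and the differences were 3.30 ± 0.36 (adjusted P = 0.000119) and 3.93 ± 0.36 (adjusted P = 8.93e-05). Rfc1, the large subunit of the clamp loader, had the smallest before PMA/I, with 51.6, 35.2 and 60.4 TPM in TB IL-2, 18.6, 16.6 and 22.00 TPM in TB IL-2nil, 15.7, 14.5 and 27.98 TPM in TB+ IL-2 and 4.20, 3.40 and 6.66 TPM in TB+ IL-2nil. Its TB IL-2nil libraries lay within the range of TB+ IL-2, and it differed by 1.29 ± 0.29 and 1.80 ± 0.29. Pcna (chromosome 2, 132074898 to 132079050, minus strand, mm9) was at 692, 500.4 and 808 TPM in TB IL-2, 119.6, 107 and 110.2 TPM in TB IL-2nil, 754, 625 and 792 TPM in TB+ IL-2 and 343, 289 and 259 TPM in TB+ IL-2nil. The TB IL-2nil libraries were the lowest, the TB+ IL-2nil libraries came next, and the IL-2 groups overlapped each other above them. Its IL-2 difference was 2.53 ± 0.19 before and 1.28 ± 0.19 after PMA/I, the latter the smallest of the 11. The flap endonuclease gene Fen1 and the ligase gene Lig1 differed by 2.71 and 3.30 before PMA/I.

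The genes of RPA, which coats unwound DNA, did not move as one. Rpa3, the smallest subunit, had the largest difference before PMA/I and was at 67.2, 72.8 and 73.6 TPM in TB IL-2, 11.04, 16.1 and 15.1 TPM in TB IL-2nil, 61.01, 74.7 and 64.3 TPM in TB+ IL-2 and 5.71, 12.1 and 14.1 TPM in TB+ IL-2nil. Its lowest library with IL-2 was at 61.0 TPM and its highest without at 16.1 TPM, with differences of 2.27 ± 0.27 and 2.62 ± 0.27. Rpa1, the large DNA-binding subunit (chromosome 11, 75111668 to 75161826, minus strand, mm9), was at 159, 123 and 186 TPM in TB IL-2, 128, 134 and 86.04 TPM in TB IL-2nil, 79.2, 59.9 and 119 TPM in TB+ IL-2 and 19.9, 15.2 and 31.3 TPM in TB+ IL-2nil. Its TB IL-2 and TB IL-2nil libraries overlapped, and only TB+ IL-2nil stood apart from all others. The difference was 0.43 ± 0.31 (adjusted P = 0.291) before and 1.91 ± 0.31 (adjusted P = 0.0021) after PMA/I. Rpa2 passed in both, by 1.496 and 2.01.

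All 4 fork protection and checkpoint genes passed in both comparisons. Clspn, which encodes the adaptor claspin of the CHK1 checkpoint kinase, had the largest difference before PMA/I and was at 63.03, 28.8 and 56.6 TPM in TB IL-2, 3.05, 5.41 and 6.59 TPM in TB IL-2nil, 19.4, 10.2 and 27.2 TPM in TB+ IL-2 and 1.20, 1.02 and 1.71 TPM in TB+ IL-2nil. Groups with IL-2 did not overlap those without, and the differences were 3.04 ± 0.38 and 3.02 ± 0.38. Timeless, the partner of Tipin in the fork protection complex, had the smallest, with 26.4, 17.4 and 34.7 TPM in TB IL-2, 4.98, 4.95 and 5.08 TPM in TB IL-2nil, 5.84, 7.63 and 15.3 TPM in TB+ IL-2 and 0.861, 0.911 and 1.49 TPM in TB+ IL-2nil. TB+ IL-2 and TB IL-2nil came close without overlap, and the differences were 2.13 ± 0.31 and 2.25 ± 0.31. Wdhd1 (chromosome 14, 47860619 to 47896532, minus strand, mm9), which ties the helicase to polymerase alpha, was at 42.05, 22.8 and 34.9 TPM in TB IL-2, 6.17, 4.18 and 5.47 TPM in TB IL-2nil, 32.5, 25.9 and 31.3 TPM in TB+ IL-2 and 19.2, 17.2 and 15.1 TPM in TB+ IL-2nil. TB IL-2nil was lowest and TB+ IL-2nil intermediate, with no overlap of either with another group. Its difference was 2.42 ± 0.22 (adjusted P = 6.65e-05) before and 0.77 ± 0.22 (adjusted P = 0.0324) after PMA/I, and the latter did not pass without both exchanged libraries (0.73, adjusted P = 0.13).

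Of the 5 nucleotide supply genes, 4 were higher with IL-2 by more than 3-fold in both comparisons. Rrm2 (chromosome 12, 25393106 to 25399011, plus strand, mm9), the S phase subunit of ribonucleotide reductase, was at 282, 187 and 292 TPM in TB IL-2, 15.5, 19.7 and 23.8 TPM in TB IL-2nil, 145, 81.3 and 189 TPM in TB+ IL-2 and 6.58, 3.98 and 8.84 TPM in TB+ IL-2nil. The lowest library with IL-2 was at 81.3 TPM and the highest without at 23.8 TPM. The difference was 3.62 ± 0.34 (adjusted P = 6.65e-05) before and 4.19 ± 0.34 (adjusted P = 5.24e-05) after PMA/I, the latter the largest of the 54 genes. Tyms, the thymidylate synthase gene (chromosome 5, 30384742 to 30400157, minus strand, mm9), was the exception. It stood at 72.2, 46.8 and 49.01 TPM in TB IL-2, 44.8, 34.97 and 40.7 TPM in TB IL-2nil, 49.5, 38.6 and 42.9 TPM in TB+ IL-2 and 36.5, 28.3 and 34.02 TPM in TB+ IL-2nil. The TB IL-2 libraries were above the TB IL-2nil libraries by a small margin, and the same held after PMA/I, but neither the difference of 0.45 ± 0.20 (adjusted P = 0.0884) nor that of 0.40 ± 0.20 (adjusted P = 0.172) passed. With the replicate block both passed (adjusted P = 0.0141 and 0.0345). A Tyms pseudogene is listed in the tables at low values. Whether reads were shared between them was not tested. Rrm1, Dut and the salvage enzyme gene Tk1 differed by 3.07, 2.76 and 2.77 before PMA/I.

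The 4 genes of maintenance methylation and chromatin assembly were each higher with IL-2 by more than 3-fold in both comparisons. Uhrf1 (chromosome 17, 56442744 to 56462909, plus strand, mm9) brings the methyltransferase DNMT1 to new DNA. On the log2(TPM + 1) scale it had the largest difference of all 54 genes before PMA/I, with means 14.1-fold apart. The means of Cdc6 were further apart, 21.8-fold. Uhrf1 was at 182, 116 and 198 TPM in TB IL-2, 6.79, 12.5 and 15.8 TPM in TB IL-2nil, 69.4, 33.5 and 107 TPM in TB+ IL-2 and 3.46, 3.46 and 6.69 TPM in TB+ IL-2nil. No library with IL-2 overlapped one without, and the differences were 3.74 ± 0.42 (adjusted P = 0.000146) and 3.58 ± 0.42 (adjusted P = 0.000409). Chaf1b, the middle subunit of the histone chaperone CAF-1, had the smallest, with 43.9, 31.2 and 43.5 TPM in TB IL-2, 7.46, 7.06 and 8.86 TPM in TB IL-2nil, 20.5, 10.8 and 28.7 TPM in TB+ IL-2 and 3.43, 2.83 and 5.93 TPM in TB+ IL-2nil. It differed by 2.19 ± 0.32 and 2.00 ± 0.32, again without overlap. Chaf1a, its large subunit, was at 48.3, 33.2 and 54.7 TPM in TB IL-2, 3.44, 4.98 and 6.14 TPM in TB IL-2nil, 12.7, 8.32 and 19.7 TPM in TB+ IL-2 and 1.08, 0.487 and 1.53 TPM in TB+ IL-2nil. TB IL-2 was above the other 3 groups, and TB+ IL-2nil was the lowest. Its differences were 2.98 ± 0.32 and 2.80 ± 0.32.

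The response to PMA/I itself was smaller and mostly downward. All genes tended the same way, with 8037 of 12442 lower in sign with IL-2 and 7955 without it. Of the 54 genes, 53 and 51 were lower in sign. In TB+ IL-2 against TB IL-2, 0 replication genes were higher and 19 of 54 were lower at an adjusted P under 0.05 in limma, against 11.8% and 23.3% of all genes. At an unadjusted P under 0.05, 25 differed. The libraries of the 2 groups did not overlap for 17 genes, all lower (35.1% of all genes). The median difference was -0.58 for the 54 genes and -0.22 for all genes, so the replication genes lay 0.36 below the median gene. More than 3-fold lower on the log2(TPM + 1) scale were 2, Cdc6 and Chaf1a (3.1% of all genes). The means of Gins3 were 3.37-fold apart, but its difference on this scale fell short of 3-fold. The count of lower genes was 2 of 54 with the labels as deposited (Cdc6 and Gins3, with 0.257% of all genes lower) and 25 without both libraries (19.7%). It was 29 with the replicate number as a block (31.3% of all genes) and 9 without TB+ IL-2 replicate 2. It was 10 without TB IL-2 replicate 1 or 3 and 12 without TB+ IL-2 replicate 1. The shares of all genes are not reported here for these single-library fits, so the counts do not show whether the members alone lost calls.

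In cells without IL-2, TB+ IL-2nil against TB IL-2nil, 31 of 54 replication genes were lower and 3 higher, where 41.1% of all genes were called lower and 20.1% higher. The median difference was -0.83 against -0.38 for all genes, 0.45 below the median gene. More than 3-fold lower on the log2(TPM + 1) scale were 6 (10.7% of all genes). The libraries did not overlap for 33 lower and 2 higher genes (42.3% and 21.8% of all genes). As labelled, 10 were lower and 0 higher (3.46% and 1.92%). Without both libraries, 22 were lower and 2 higher (35.6% and 17.8%), and without TB IL-2nil replicate 3 alone 20 were lower. With quantile normalization, under which the study's normalized values were met, the median difference was -0.30, 0.16 below the median gene. These comparisons share their TB IL-2 and TB IL-2nil libraries with those of IL-2 above.

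By role, the counts of genes lower after PMA/I stand beside 23.3% of all genes with IL-2 and 41.1% without. All 4 methylation and chromatin assembly genes were lower with IL-2 and without it. Without both exchanged libraries these counts were 4 and 2, and as labelled 0 and 1. The calls with IL-2 were lost in 11 of 24 alternatives for Dnmt1, 9 for Uhrf1, 9 for Chaf1b and 1 for Chaf1a. Those without IL-2 were lost in 13 for Chaf1b, 9 for Uhrf1, 1 for Dnmt1 and 0 for Chaf1a. Of the 7 MCM helicase genes, 0 were called with IL-2 (2 at an unadjusted P under 0.05) and 4 were lower without it, against 2 and 2 without both libraries and 0 and 0 as labelled. Of the 9 polymerase and primase genes, 3 were lower with IL-2, and 8 lower and 1 higher without it. Without both libraries 4 of the 9 were lower with IL-2, and 3 lower and 0 higher without it, and as labelled 0 were lower with IL-2, and 2 lower and 0 higher without it. Of the 6 licensing genes 2 were lower in each comparison, Cdc6 and Gmnn with IL-2 and Orc1 and Gmnn without, against 3 and 2 without both libraries and 1 and 1 as labelled.

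The 3 genes with the largest fall in TB+ IL-2 against TB IL-2 were Cdc6, -2.50 ± 0.30 (adjusted P = 0.000148), Chaf1a, -1.71 ± 0.32 (adjusted P = 0.00205), and Gins3, -1.57 ± 0.23 (adjusted P = 0.000453). Each had TB+ IL-2 libraries wholly below those of TB IL-2, as the values above show. Pcna was the only member with a difference above 0 there, 0.14 ± 0.19 (adjusted P = 0.616), and its libraries overlapped. That sign turned with quantile normalization (-0.15), with the labels as deposited (-0.81) and without TB IL-2 replicate 2 (-0.0551).

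Without IL-2 the largest falls on the log2(TPM + 1) scale were those of Rpa1, -2.37 ± 0.31 (adjusted P = 7.65e-05), Gmnn, -2.13 ± 0.38 (adjusted P = 0.000535), and Gins4, -1.89 ± 0.24 (adjusted P = 6.65e-05). In all 3 the TB+ IL-2nil libraries were below those of TB IL-2nil. The same 3 genes were called lower as labelled. By the ratio of means Gins3 fell more than any of them, from 4.76 to 0.752 TPM, where adding 1 TPM understates the change. Higher were Wdhd1, 1.54 ± 0.22 (adjusted P = 0.000142), Pcna, 1.39 ± 0.19 (adjusted P = 0.000114), and Pold2, 0.78 ± 0.26 (adjusted P = 0.0214). Wdhd1 and Pcna did not overlap between the groups, whereas Pold2 did, at 10.6 to 18.4 TPM before and 16.4 to 30.7 TPM after PMA/I. None of the 3 was called with the labels as deposited, where their differences were 0.77, 0.44 and 0.07, and Pold2 was not called without both exchanged libraries.

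**Figure D4:**
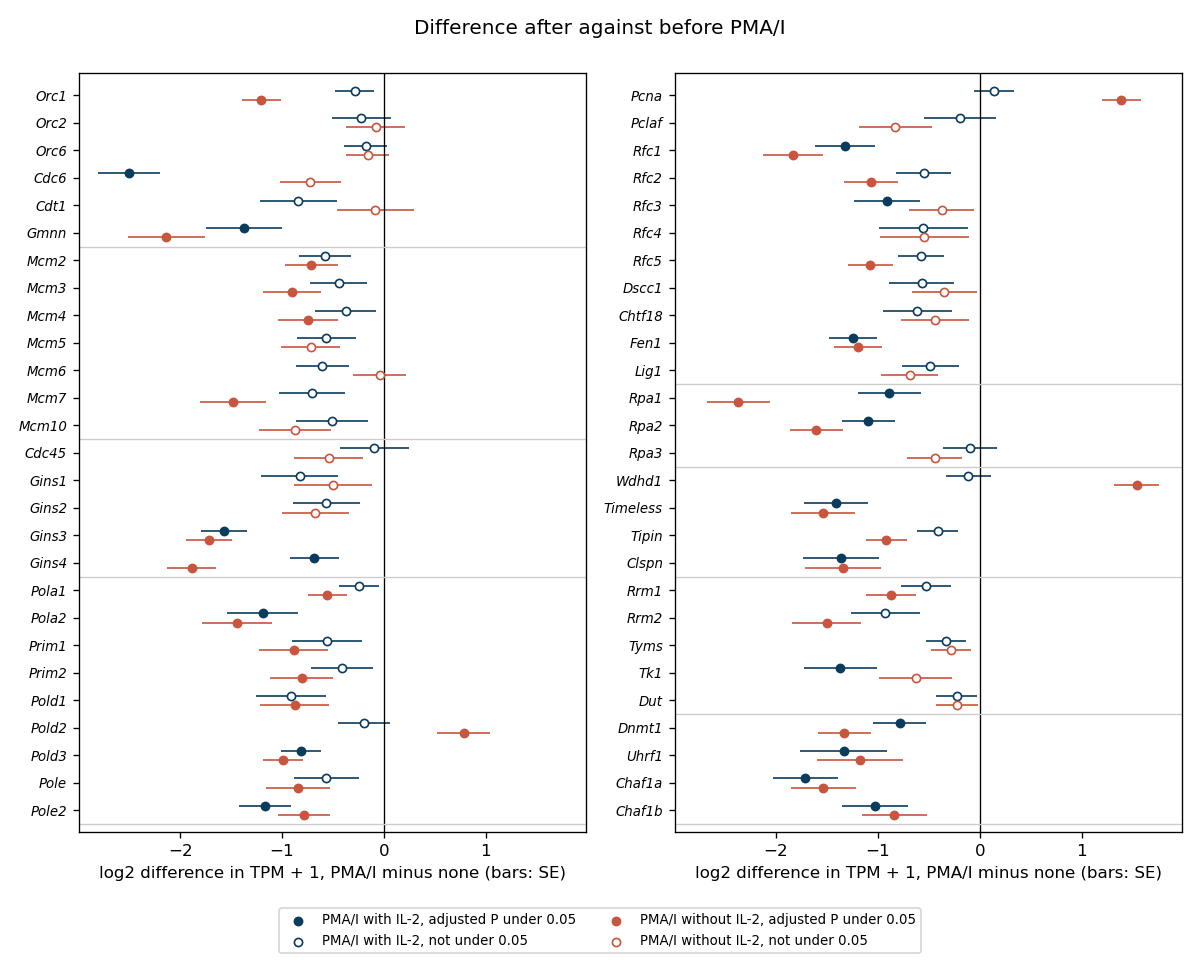
Log2 difference in TPM + 1 between cells after and before PMA/I (points, with bars for the SE of the limma fit) for each replication gene, with IL-2 (dark blue) and without (red). Filled points passed an adjusted P under 0.05. Most points lie below 0, and Pcna, Wdhd1 and Pold2 are the filled red points above it.

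Whether the PMA/I response depended on IL-2 was tested as an interaction, the difference between both responses. It was lower than 0 for 3 of 54 genes and higher for 0 (2.66% and 1.57% of all genes), with 7 of 54 at an unadjusted P under 0.05. These were Cdc6 at -1.78 ± 0.43 (adjusted P = 0.0434), Wdhd1 at -1.65 ± 0.31 (adjusted P = 0.0243) and Pcna at -1.25 ± 0.27 (adjusted P = 0.0333). Cdc6 fell after PMA/I with IL-2 and differed by -0.72 without (adjusted P = 0.0569). Its TB+ IL-2nil libraries were all below its TB IL-2nil libraries, with means of 0.307 and 1.19 TPM, where this scale understates changes. With a pseudocount of 0.1 the interaction of Cdc6 did not pass. Wdhd1 and Pcna rose after PMA/I without IL-2 and differed by -0.11 and 0.14 with it. The largest positive values were Rpa1 at 1.48 ± 0.44 (adjusted P = 0.083), Gins4 at 1.20 ± 0.34 (adjusted P = 0.0731) and Orc1 at 0.92 ± 0.27 (adjusted P = 0.0819), which did not pass. With the replicate block these 3 passed (6.11% of all genes higher), and with the labels as deposited or without both libraries no member passed in either direction (3 and 9 at an unadjusted P under 0.05). Of all genes, 0% were called either way as labelled, and 0.0241% higher and 0.00804% lower without both libraries.

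**Figure D5:**
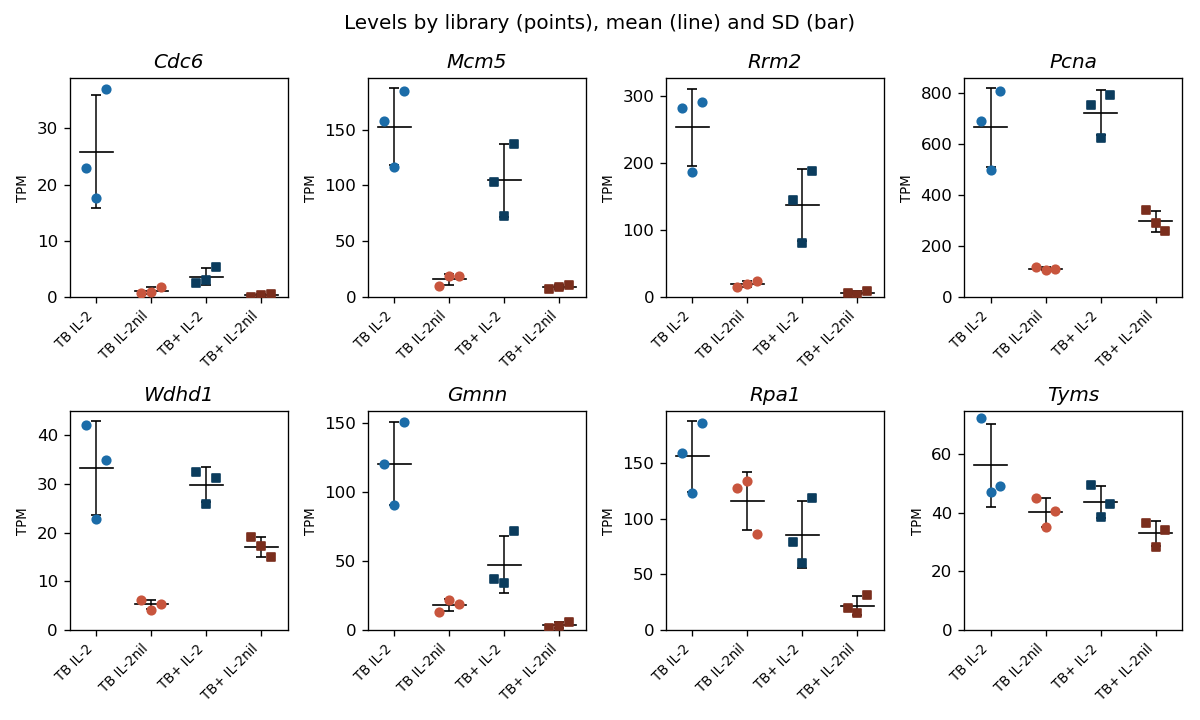
TPM of 8 replication genes in each library (points), with the mean (line) and SD (bar) of 3 libraries per group. Cdc6, Mcm5, Rrm2 and Gmnn are highest in TB IL-2, Pcna and Wdhd1 are higher in TB+ IL-2nil than in TB IL-2nil, Rpa1 is lowest in TB+ IL-2nil, and Tyms stays between 28.3 and 72.2 TPM in all 12 libraries.

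Of 37 other replication factors, 27 were higher and 1 was lower in TB IL-2 than in TB IL-2nil (17.3% and 22.3% of all genes), with a median difference of 1.36. As labelled 1 was higher and 0 lower, and without both libraries 24 and 1. Cdca7, which works with the chromatin remodeller HELLS, was at 50.4 to 68.7 TPM in TB IL-2 and 2.61 to 6.28 TPM in TB IL-2nil, a difference of 3.57 ± 0.31 (adjusted P = 5.28e-05). Asf1b, a histone chaperone of dividing cells, was at 77.4 to 135 TPM and 4.14 to 14.04 TPM and differed by 3.55 ± 0.45. Dtl, which targets CDT1 for degradation, was at 25.8 to 58.2 TPM and 2.16 to 4.28 TPM and differed by 3.35 ± 0.36. The 3 did not overlap between the groups. The lower gene was Pold4, the smallest subunit of polymerase delta, at 20.3 to 23.96 TPM in TB IL-2 and 43.6 to 67.8 TPM in TB IL-2nil (-1.29 ± 0.31, adjusted P = 0.00717), also without overlap. Orc3, Orc4 and Orc5, further subunits of the origin recognition complex, were not called (-0.23, -0.19 and -0.04). After PMA/I 22 were higher and 2 lower with IL-2 (12.9% and 8.4% of all genes), against 20 and 1 without both libraries and 0 and 0 as labelled. PMA/I with IL-2 left 18 of the 37 lower and 1 higher (23.3% and 11.8% of all genes), against 18 and 1 without both libraries and 2 and 0 as labelled. Without IL-2, 19 were lower and 8 higher after PMA/I (41.1% and 20.1% of all genes), against 14 and 8 without both libraries and 5 and 0 as labelled.

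Of 34 other nucleotide synthesis genes, 23 were higher and 6 lower in TB IL-2 than in TB IL-2nil (17.3% and 22.3% of all genes), with a median of 1.09. As labelled 0 were called (6 at an unadjusted P under 0.05), and without both libraries 20 were higher and 4 lower. After PMA/I 15 were higher and 1 lower with IL-2 (12.9% and 8.4% of all genes). Without both libraries 7 were higher (6.94% of all genes) and 0 lower, and as labelled 0 were higher (0.185%) and 0 lower. The serine hydroxymethyltransferase gene Shmt1 was at 17.3 to 27.1 TPM in TB IL-2 and 1.77 to 3.01 TPM in TB IL-2nil (2.72 ± 0.30, adjusted P = 0.000132). Ctps, the CTP synthase gene, was at 30.3 to 39.3 TPM and 2.79 to 7.06 TPM (2.70 ± 0.30), and Cad, which starts pyrimidine synthesis, at 51.4 to 57.1 TPM and 6.57 to 9.58 TPM (2.57 ± 0.26). The lower genes with the largest differences were the mitochondrial thymidine kinase gene Tk2 (-1.39 ± 0.32), Ctps2 (-1.13 ± 0.23) and Samhd1, which degrades deoxynucleotides (-1.002 ± 0.24, at 193 to 268 TPM against 388 to 482 TPM). All 6 named genes had separate libraries in the 2 groups.

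After PMA/I in cells without IL-2, 19 of these 34 metabolic genes were higher and 9 lower (20.1% and 41.1% of all genes), with a median of 0.98. Without both libraries 18 were higher and 7 lower (median 1.02), and as labelled 0 were higher and 1 lower (median 0.33). Ctps reached 70.4 to 139.8 TPM in TB+ IL-2nil, a difference of 4.34 ± 0.30 (adjusted P = 1.57e-06), and Shmt1 reached 33.2 to 75.5 TPM (4.03 ± 0.30). With IL-2, 6 were higher and 2 lower after PMA/I (11.8% and 23.3% of all genes), against 5 and 2 without both libraries and 0 and 0 as labelled. The interaction was lower than 0 for 7 and higher for 0 (2.66% and 1.57% of all genes), with -3.19 ± 0.43 for Ctps (adjusted P = 0.0108). As labelled or without both libraries none of the 34 passed in the limma interaction (0 and 17 at an unadjusted P under 0.05). The difference between this list and the replication genes was not tested.

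Over the 12 libraries, Mybl2 (Pearson r = 0.9932), Dtl (0.9927) and Paxip1 (0.9883) were among the genes outside the list whose log2(TPM + 1) was most like the mean of the 54 genes, each set to mean 0 and SD 1. The 12 points fall into 4 groups that differ in most genes, so these values describe the pattern of the groups. Among the 54 genes themselves, which are part of the mean, Rrm2 (0.9943) and Uhrf1 (0.9933) were most like it, and Wdhd1 (0.6592), Pcna (0.7279), Orc2 (0.7423) and Rpa1 (0.7476) least.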

How the data were processed

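RNA was depleted of rRNA and made into strand-specific libraries. Per the labels, the authors trimmed with Trimmomatic 0.32, used HISAT2 2.1.0 for alignment on mm9, and obtained gene values from StringTie 1.3.3. The deposited values are FPKM values, although the methods name TPM: library sums run from 193815 to 420487. They contain no read counts or depths, and replicates are not pooled.

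FPKM values were here divided by the library's sum to give TPM. The 12442 genes that exceeded 1 TPM in any library entered the tests, after their 75th percentiles had been made equal. Limma 3.58.1 (in R 4.3.3) was applied to log2(TPM + 1) of all 12 libraries, without a block, leaving 8 residual degrees of freedom. This scale understates changes of genes with few TPM. Calls are at a Benjamini-Hochberg adjusted P under 0.05 over all genes, also beyond 3-fold on this scale. The procedure was tested on simulated data. Promoters come from RefSeq (GRCm38.p6) and gene coordinates from GENCODE M1 (mm9, 53 of 54 genes). Figures used Python 3.11.15 and matplotlib 3.10.9.

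Members and lists were chosen with earlier results of these data known. Values in every library are given for the genes with the largest and smallest difference per role in TB IL-2 against TB IL-2nil and the 3 largest in each direction elsewhere. From the other lists, the 3 called genes with the largest differences in each direction are named, and further genes were named after their values were seen. Some genes that this choice would name are not reported here.

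Same-numbered libraries deviated together from their group means, with correlations of 0.101 to 0.531 in all 18 pairs as placed and -0.777 to 0.453 as labelled. The numbers come from the labels, which do not say what they share. Alternatives were the labels as deposited, leaving out both exchanged libraries or each library in turn, the block, other scalings, filters and a pseudocount of 0.1, an intensity trend, leaving out short non-coding RNAs, and fits on the compared groups alone.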

Additional observations from a re-analysis of the deposited data

Results flagged for a closer look

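The response to PMA/I differed between cells with and without IL-2 for 3 of the 54 genes, by the interaction term in limma with Benjamini-Hochberg adjustment. All 3 were lower than 0, where 2.66% of all genes were called lower and 1.57% higher. Cdc6 gave -1.78 (adjusted P = 0.0434), with a fall in 3 of 3 TB+ IL-2 libraries below all TB IL-2 libraries. Its 3 TB+ IL-2nil libraries were also below all TB IL-2nil libraries, with means of 0.307 and 1.19 TPM, where this scale understates changes. Wdhd1 gave -1.65 (adjusted P = 0.0243) and Pcna -1.25 (adjusted P = 0.0333), both with 3 of 3 TB+ IL-2nil libraries above all TB IL-2nil libraries. Both exchanged libraries enter the interaction with the same sign, so these values are the same with the labels as deposited, but no adjusted P passed there (0.914 for each). Without both libraries the values were -2.24, -1.72 and -1.31, and none passed (adjusted P = 0.0692, 0.0885 and 0.105). With a pseudocount of 0.1 Cdc6 gave -1.09 (adjusted P = 0.379), Wdhd1 -1.81 (adjusted P = 0.0358) and Pcna -1.26 (adjusted P = 0.0537). Over the alternatives tried, the adjusted P ranged from 0.00804 to 0.914 for Cdc6, from 0.0091 to 0.914 for Wdhd1 and from 0.016 to 0.914 for Pcna.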

How the results depend on the processing

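With the labels as deposited, the members higher in TB IL-2 against TB IL-2nil were 1 (1 beyond 3-fold, with 7 of all 12442 genes, median 1.83). In TB+ IL-2 against TB IL-2, 2 were lower (median -1.35). In TB+ IL-2nil against TB IL-2nil, 10 were lower and 0 higher (median -1.56). In TB+ IL-2 against TB+ IL-2nil, 3 were higher (3 beyond 3-fold, with 13 of all 12442 genes, median 1.90), and the interaction had 0 lower. There Pcna turned to -0.81 in TB+ IL-2 against TB IL-2 and Wdhd1 to -0.0075 in TB+ IL-2 against TB+ IL-2nil. Without both exchanged libraries, 8 were more than 3-fold lower in TB+ IL-2 against TB IL-2, as were 483 of all 12442 genes. The interaction then had 0 lower.

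Other settings left 51 to 52 genes higher with IL-2 before PMA/I as each library was left out, and 50 to 52 after it. For TB+ IL-2 against TB IL-2, the count of lower genes was 10 with no filter (1 beyond 3-fold), with no scaling after TPM and in a fit of these groups alone, and 12 with median-ratio scaling (1 beyond 3-fold). Quantile normalization turned Pcna to -0.15. For TB+ IL-2nil against TB IL-2nil, 20 were lower with no filter, 16 with quantile normalization (3 beyond 3-fold, median -0.30, and Pola1 turned to 0.0753) and 19 with median-ratio scaling (median -0.51). With no scaling 15 were beyond 3-fold (median -1.24), and with a pseudocount of 0.1 it was 14. The median of all genes moved with the scaling in this comparison, from -0.38 to -0.14 (quantile), -0.08 (median-ratio) and -0.78 (none), and the members lay 0.45, 0.16, 0.43 and 0.47 below it. A pseudocount of 0.1 gave a median of 2.91 in TB+ IL-2 against TB+ IL-2nil, and 1 higher and 1 lower in the interaction. The interaction had 0 lower with no scaling (median 0.53) and a median of -0.35 with quantile normalization. The shares of all genes called in these settings are not reported here, so the counts do not show whether the members alone gained or lost calls. The cause of these changes was not tested.

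With the replicate block, 29 genes were lower in TB+ IL-2 against TB IL-2 and 3 had a higher interaction. The block let Tyms pass in both IL-2 comparisons (adjusted P = 0.0141 and 0.0345), Orc2 pass after PMA/I (adjusted P = 0.0206), and Rpa1, Gins4 and Orc1 pass in the interaction, and moved no other count by more than 1.5 times.

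Leaving out 1 library at a time gave 43 to 48 genes beyond 3-fold in TB IL-2 against TB IL-2nil (median 2.40 to 2.74) and 42 to 47 in TB+ IL-2 against TB+ IL-2nil (median 2.34 to 2.69). In TB+ IL-2 against TB IL-2 it gave 9 to 28 lower and 1 to 8 beyond 3-fold (median -0.85 to -0.43), and Pcna turned to -0.0551 without TB IL-2 replicate 2 (-0.0551 to 0.29 over all libraries). In TB+ IL-2nil against TB IL-2nil it gave 2 to 3 higher, 20 to 33 lower and 5 to 12 beyond 3-fold (median -0.96 to -0.66). The interaction had 0 to 4 lower and 0 to 2 higher genes (median -0.03 to 0.34), with 0 lower without TB IL-2 replicate 3, TB IL-2nil replicate 2, TB+ IL-2 replicate 2 or 3, or TB+ IL-2nil replicate 1 or 2. The shares of all genes called in these single-library fits are not reported here either. Depth is known only as an inferred relative value and no counting error is known, so low levels such as those of Cdc6 in TB+ IL-2nil cannot be bounded.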
